A study of Mus musculus with 9 samples.

Results

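The genes of autophagy initiation and of ATG2/ATG9 lipid transfer were followed in neonatal rat ventricular myocytes (NRVMs) that overexpressed LacZ, Nrf1 or Nrf2. The members are a list of symbols put together by role in the pathway, with no cut on measured values but with earlier results of these data known: *Ulk1*, *Ulk2*, *Atg13*, *Rb1cc1* and *Atg101* of the ULK complex, *Atg2a*, *Atg2b* and *Atg9a* of lipid transfer, and *Wipi1* and *Wipi2*, which bind phosphatidylinositol 3-phosphate (PI3P). Of these 10 genes, 9 had a row in each of the deposited tables, which list 14819 genes for Nrf1 and LacZ, and *Atg2b* was not analysed here. *Atg2a* and *Atg13*, and *Atg4d* of the lists further below, are also among the autophagy genes that the study itself singled out from these libraries, so their values here are not independent evidence.

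Autophagy delivers cytoplasmic cargo to lysosomes inside a double-membraned vesicle, the autophagosome. It begins when the ULK kinase complex, which is held back by mTORC1 and promoted by AMPK, becomes active at the endoplasmic reticulum. Vesicles that carry the lipid scramblase ATG9A seed a cup-shaped membrane called the phagophore, ATG2 proteins bring lipids to it from the endoplasmic reticulum, and WIPI proteins that bind PI3P connect the young membrane with the machinery that attaches LC3-type proteins. In cardiomyocytes this pathway removes worn organelles and protein aggregates.

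NRVMs are primary ventricular cardiomyocytes, taken here from Sprague Dawley rats aged 1 or 2 days, and the labels enter the organism as mouse although strain and cell type name the rat. After 48 h in culture the cells received adenoviruses at 50 infectious units per cell (the multiplicity of infection), and RNA was taken 48 h later. Each virus carried a coding region behind the CMV promoter, which is not specific to cardiomyocytes, together with a red fluorescent protein: the bacterial lacZ gene in controls (Adeno-LacZ), mouse Nrf1 (Adeno-Nrf1) or mouse Nrf2 (Adeno-Nrf2). Each group had 3 libraries, and the labels do not say whether these came from separate isolations. The deposited tables hold the mean of each group and no value per library, so no SD is given, no test between samples was run, and a difference cannot be set against the spread between libraries.

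The authors' mean values are normalized read counts, read counts per gene scaled for sequencing depth within the pair of groups of a table, and values were compared only within a table. The group means under 2 were all whole sums of 3 recurring steps, each read as 1 read in 1 library, which put the depth at about 25777509 counted reads summed over the LacZ libraries, 29131444 over the Nrf1 libraries and 33600954 over the Nrf2 libraries. On this reading, each group mean of a member stood on between 947 and 9037 reads, and the 95% intervals printed below cover this counting error only. They are exact binomial for the ratio of a gene and a normal approximation for the gap between genes. *Nfe2l2*, which encodes Nrf2, was measured at 3475 without and 75066 with the Nrf2 virus, where reads of the virus and of the cells' own gene cannot be told apart, and *Nfe2l1*, which encodes Nrf1, was not analysed here. All 14 measured cardiomyocyte markers were detected in every group, with summed means of 130572 in LacZ and 108171 in Nrf1 samples, and of 139428 in LacZ and 150241 in Nrf2 samples in the other table. Markers of other cells were present too: the 11 fibroblast markers summed to 123620 in LacZ samples and 38134 in Nrf1 samples, with none at 0, and in bulk RNA fewer cells of a type and less RNA per cell cannot be told apart.

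The comparison of Nrf1 with LacZ samples asked which genes respond to Nrf1 overexpression in cardiomyocytes. Of the 9 members, 7 had a higher mean in Nrf1 than in LacZ samples and 2, *Ulk2* and *Wipi1*, a lower one. *Atg2a*, at a ratio of 1.90, and *Atg13*, at a ratio of 1.62, lay above 1.5, the fold limit of the study's methods, and *Wipi1*, at a ratio of 0.632, lay under its inverse. The members above the limit make up 22.2% of the 9, against 15.0% of all genes in the table and 11.6% of the well counted genes, those whose mean reached 100 for at least 1 of the groups, as all 9 members did. The member below the limit makes up 11.1%, against 24.3% of all genes and 11.9% of well counted genes. The share of lower members was thus near that of well counted genes and below that of all genes. The median log2 ratio of the members was 0.34, and that of all well counted genes was 0.05.

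In the ULK complex, *Atg13*, the adaptor through which the kinase is tethered to its partners and which mTORC1 phosphorylates, had the largest ratio. Its mean was 975 in LacZ and 1576 in Nrf1 samples, a log2 ratio of 0.69 (95% counting interval 0.63 to 0.76). As deposited, the interval lay wholly above the fold limit of 0.58 on this scale. With ratios re-centred on the median well counted gene or scaled by column sums, *Atg13* was at 0.64 or 0.63, above the limit. The lower end of its interval then reached just inside the limit. The scaffold gene *Rb1cc1*, which encodes FIP200, had the deepest counts of the set, with means of 2143 in LacZ and 2875 in Nrf1 samples, a log2 ratio of 0.42 (0.38 to 0.47). *Atg101*, whose product stabilizes ATG13, had means of 578 and 695 and a log2 ratio of 0.27 (0.17 to 0.36). These 3 partner genes of the kinase were thus higher in Nrf1 samples by more than counting error, and *Atg13* alone of them lay past the limit.

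The kinase genes themselves did not move together. *Ulk1*, the main initiating kinase, had a mean of 327 in LacZ and 414 in Nrf1 samples (log2 ratio 0.34, interval 0.22 to 0.46). *Ulk2*, its close relative, had a mean of 441 in LacZ and 387 in Nrf1 samples (log2 ratio -0.19, interval -0.30 to -0.07), a direction that turned to 0.09 when ratios were re-centred on the cardiomyocyte markers. The gap between the log2 ratios of *Ulk1* and *Ulk2* was 0.53 (0.36 to 0.70), and as a ratio of ratios within a table it is free of the scaling of the groups.

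Among the lipid transfer genes, *Atg2a*, which encodes a bridge-like protein that moves phospholipids into the growing phagophore, had the largest ratio of all 9 members. Its mean was 362 in LacZ and 688 in Nrf1 samples, a log2 ratio of 0.93 (0.82 to 1.04), higher than in 95.7% of the well counted genes. *Atg9a*, which encodes the scramblase that works with ATG2, had means of 975 and 1065, and its log2 ratio of 0.13 (0.06 to 0.20) was the closest to 0 among the 9. Scaled by column sums, *Atg9a* was at 0.07, with an interval that held 0. The gene of the transfer protein and the gene of the scramblase therefore had unlike ratios in the same samples.

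The PI3P-binding pair had opposite ratios. *Wipi2*, whose product recruits ATG16L1 to the phagophore, had a mean of 424 in LacZ and 599 in Nrf1 samples (log2 ratio 0.50, interval 0.39 to 0.60). *Wipi1* had a mean of 961 in LacZ and 607 in Nrf1 samples (log2 ratio -0.66, interval -0.75 to -0.58), and the inner end of its interval reached just inside the fold limit. The gap between *Wipi2* and *Wipi1* was 1.16 on the log2 scale (1.03 to 1.29), wider than the gap between the kinases. *Wipi1* was lower together with 10 of the 11 fibroblast markers (90.9%) and 11 of the 12 leukocyte markers (91.7%), which were under the limit in the same table, as were 24.3% of all genes. The part of these cells in the value of *Wipi1* was not tested. Re-centred on the cardiomyocyte markers, *Wipi1* stood at -0.38 and was no longer past the limit. These 14 markers did not move together: their median log2 ratio was -0.28, their values ran from -1.84 (*Mb*) to 0.83 (*Ryr2*), and 5 (35.7%) were under and 1 (7.14%) above the limit, against 24.3% and 15.0% of all genes. With this shift of every gene, 5 members (55.6%), *Ulk1*, *Atg13*, *Rb1cc1*, *Atg2a* and *Wipi2*, lay above the limit, as did 26.5% of all genes and 26.9% of well counted genes.

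**Figure D1:**
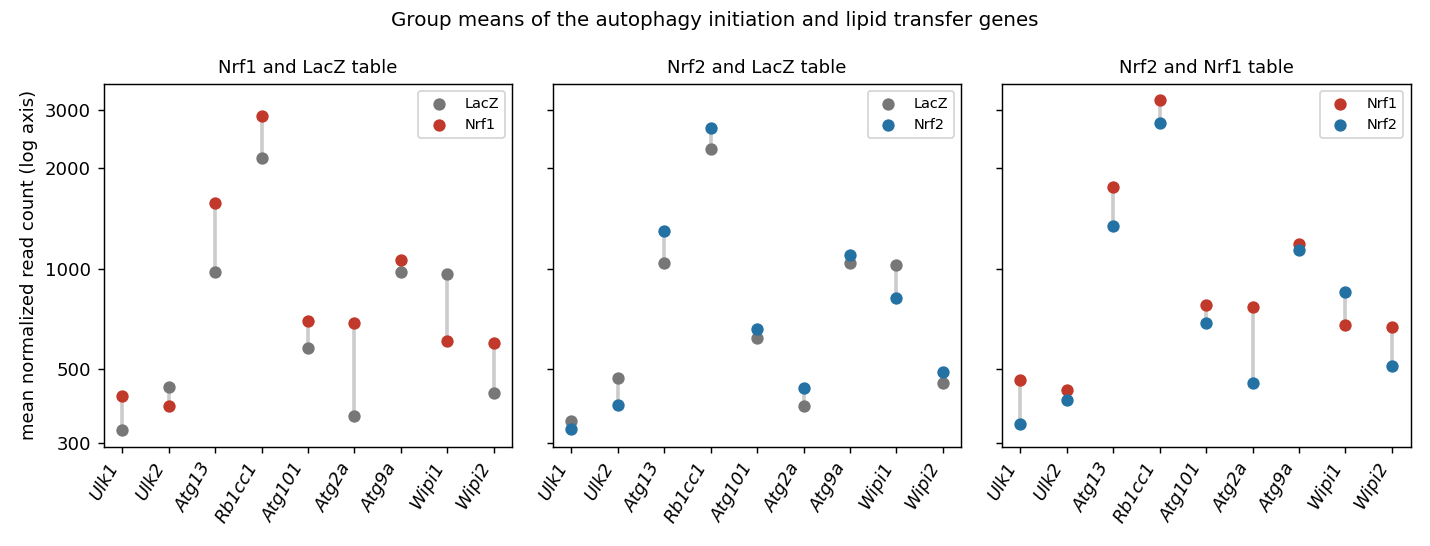
Mean normalized read count (log axis) of the 9 measured members in the deposited table for Nrf1 and LacZ (left), for Nrf2 and LacZ (middle) and for Nrf2 and Nrf1 (right), with a point per group, coloured by group, and a grey line joining the 2 points of a gene. The widest gap on the left is that of *Atg2a*, from 362 to 688, while in the middle the points of a gene lie close together, and no SD is drawn because the tables hold group means.

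The comparison of Nrf2 with LacZ samples put the same question to the related factor. None of the 9 members lay past the fold limit in either direction in Nrf2 samples; among all genes 15.6% were above it and 15.5% under it, and among well counted genes the shares were 7.67% and 6.65%. Of the members, 6 had a higher and 3 a lower mean than in LacZ samples, and the median log2 ratio was 0.09 against 0.01 for all well counted genes. The log2 ratios ran from -0.33 to 0.31, and no test was available to say which of them exceed the spread between libraries.

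*Atg13* again had the largest ratio of the ULK complex, with means of 1042 in LacZ and 1294 in Nrf2 samples (log2 ratio 0.31, interval 0.24 to 0.38). *Rb1cc1* followed with means of 2289 and 2643 (log2 ratio 0.21, interval 0.16 to 0.25). *Atg101*, with means of 617 and 658, had a log2 ratio of 0.09 whose interval began at 0.00. *Atg13* and *Rb1cc1* were the ULK complex genes whose means in Nrf2 samples exceeded those in LacZ samples by clearly more than counting error. *Ulk1* had means of 349 and 330, and its log2 ratio of -0.08 had an interval of -0.21 to 0.04 that held 0, so that no difference was detectable as deposited. Scaled by column sums or re-centred on the cardiomyocyte markers, *Ulk1* was at -0.16 or -0.14, with an interval below 0. *Ulk2* had means of 471 and 388 (log2 ratio -0.28, interval -0.39 to -0.17) and was lower in Nrf2 samples under every scaling tried.

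*Atg2a* had means of 386 in LacZ and 438 in Nrf2 samples, a log2 ratio of 0.18 (0.07 to 0.30), and *Atg9a* had means of 1041 and 1098, a log2 ratio of 0.08 (0.01 to 0.15). *Wipi1* had means of 1027 and 819, a log2 ratio of -0.33 (-0.40 to -0.25). The mean of *Wipi2* was 453 in LacZ and 489 in Nrf2 samples, a log2 ratio of 0.11 (0.00 to 0.22). The pair of WIPI genes was thus apart here as well, by 0.44 on the log2 scale (0.31 to 0.57), and *Ulk1* and *Ulk2* by 0.20 (0.03 to 0.36). *Wipi1* stood lower beside 8 of the 11 fibroblast markers (72.7%) and 11 of the 12 leukocyte markers (91.7%) under the limit in this table, against 15.5% of all genes. The part of these cells in the value of *Wipi1* was not tested. The LacZ libraries are the same in both comparisons, so a LacZ mean that is unusual by chance enters each of them.

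**Figure D2:**
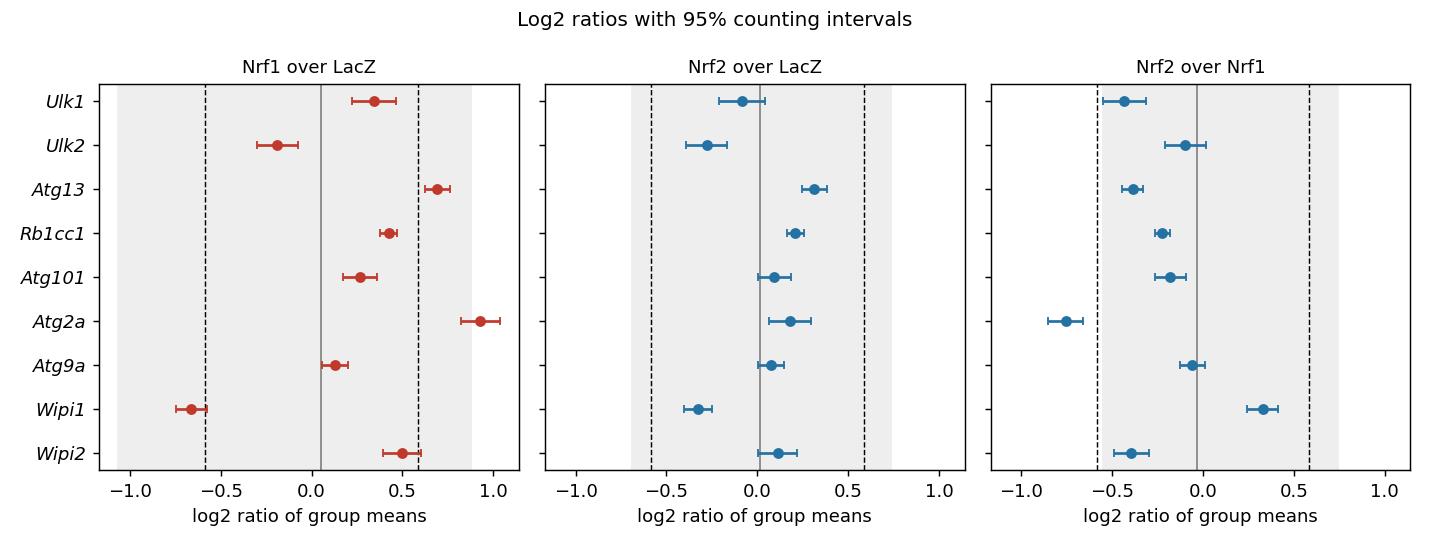
Log2 ratio of the group means of the 9 members for Nrf1 over LacZ (left), Nrf2 over LacZ (middle) and Nrf2 over Nrf1 (right), with bars for the 95% counting interval, which leaves out the spread between libraries. Grey bands span the 5th to 95th percentile of all well counted genes, grey lines mark their median, and dashed lines mark a ratio of 1.5 in either direction; *Atg2a* on the left and on the right lies beyond both band and dashed line, and *Ulk2* on the left and *Wipi1* on the right change sign when re-centred on the cardiomyocyte markers.

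Nrf1 and Nrf2 samples were compared directly in the remaining table, which does not use the LacZ libraries. Of the 9 members, 8 had a lower mean in Nrf2 than in Nrf1 samples, and the median log2 ratio of Nrf2 over Nrf1 was -0.22, against -0.03 for all well counted genes. *Atg2a* lay under the inverse of the fold limit, which makes 11.1% of the members, against 8.72% of all genes and 4.24% of the well counted genes. No member was above the limit, where 20.1% of all genes and 7.50% of well counted genes lay. The mean of *Atg2a* was 768 in Nrf1 and 455 in Nrf2 samples, a log2 ratio of -0.76 (-0.85 to -0.66), and only 1.98% of the well counted genes had a lower value.

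*Ulk1* had the next largest difference, with means of 462 in Nrf1 and 342 in Nrf2 samples (log2 ratio -0.43, interval -0.55 to -0.32). *Wipi2* had means of 668 and 508 (log2 ratio -0.39, interval -0.49 to -0.30). The means of *Atg13* were 1759 and 1345 (log2 ratio -0.39, interval -0.45 to -0.33). These 3 genes, a kinase, a PI3P-binding protein and the kinase adaptor, were each lower in Nrf2 samples by more than counting error and stayed inside the fold limit. *Rb1cc1* and *Atg101* had log2 ratios of -0.22 (means 3207 and 2746) and -0.18 (means 776 and 684). For *Ulk2*, with means of 431 and 403, and *Atg9a*, with means of 1188 and 1141, the counting intervals of the log2 ratio ran from -0.21 to 0.02 and from -0.13 to 0.01, so no difference was detectable for either as deposited. Re-centred on the cardiomyocyte markers, *Ulk2* and *Atg9a* were at -0.57 and -0.53, with intervals that no longer held 0.

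*Wipi1* was the member with a higher mean in Nrf2 than in Nrf1 samples, 851 against 678, with a log2 ratio of 0.33 (0.24 to 0.41) that turned to -0.14 after re-centring on the cardiomyocyte markers. These markers had a median log2 ratio of 0.47 in this table, with values from -0.43 (*Nkx2-5*) to 1.89 (*Mb*) and 6 of the 14 (42.9%, against 20.1% of all genes) above the fold limit, and the scaling shifts every gene down by that median. Of the fibroblast markers, 7 of 11 (63.6%) were above the limit and 1 (9.09%) was under it, against 20.1% and 8.72% of all genes, and their part in the value of *Wipi1* was not tested. After that re-centring, 6 members (66.7%), *Ulk1*, *Atg13*, *Rb1cc1*, *Atg101*, *Atg2a* and *Wipi2*, were under the limit, as were 36.3% of all genes and 39.3% of well counted genes.

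The order of the groups followed from the 3 pairwise comparisons. For 6 members, *Atg13*, *Rb1cc1*, *Atg101*, *Atg2a*, *Atg9a* and *Wipi2*, Nrf1 samples had the highest mean, Nrf2 samples came next and LacZ samples had the lowest, with the Nrf1 and Nrf2 means of *Atg9a* inside counting error. The step from LacZ to Nrf2 in this order held beyond counting error under every scaling tried for *Atg13* and *Rb1cc1* only. Scaled by column sums, its log2 ratio was 0.017 for *Atg101*, 0.105 for *Atg2a*, 0.001 for *Atg9a* and 0.036 for *Wipi2*, each with an interval that held 0, and re-centring on the median gene or the cardiomyocyte markers brought the intervals of *Atg101*, *Atg9a* and *Wipi2* over 0 as well. With column sums the step of *Atg9a* from LacZ to Nrf1 was 0.069, and its interval also held 0, so no step in the order of *Atg9a* held under that scaling. *Ulk1* ran from Nrf1 over LacZ to Nrf2, and its LacZ and Nrf2 means as deposited did not differ beyond counting error. Scaled by column sums or re-centred on the cardiomyocyte markers, its log2 ratio of Nrf2 over LacZ was -0.16 or -0.14, with an interval below 0. *Ulk2* ran from LacZ over Nrf1 to Nrf2, its Nrf1 and Nrf2 means as deposited not differing beyond counting error, and *Wipi1* from LacZ over Nrf2 to Nrf1. Re-centred on the cardiomyocyte markers, *Ulk2* was at 0.09 for Nrf1 over LacZ, with an interval that held 0. *Wipi1* was at -0.14 for Nrf2 over Nrf1 with that scaling, with an interval below 0. Levels of different genes were not ranked against each other, because read counts grow with transcript length.

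Nrf1 and Nrf2 act through antioxidant response elements, short DNA motifs that they bind together with small Maf proteins. Promoter windows of 300 bases, 250 before and 50 after the transcription start, were at hand from RefSeq for the mouse (GRCm38.p6) and matched 9 of the 10 members, all but *Rb1cc1*. They are mouse sequences, and the cells were from rats. The core of the element, spelled TGACNNNGC and searched on both strands, occurred in 2 of these 9 windows and in 12.4% of all 32851 windows. The stretches of 50 bases that hold it are shown for both of the windows with a match. They belong to members with unlike ratios. *Atg13* was above the fold limit in Nrf1 samples and *Ulk2* lower than in LacZ samples there (0.09 with the cardiomyocyte re-centring). Capitals mark the match, on the opposite strand in *Atg13* and on the strand of the gene in *Ulk2*. The *Atg13* stretch lies 250 to 201 bases before the start, at chr2:91710793-91710842 on the minus strand, and the *Ulk2* stretch 50 to 1 bases before the start, at chr11:61855093-61855142 on the minus strand.
Atg13: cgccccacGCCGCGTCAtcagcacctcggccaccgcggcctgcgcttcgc
Ulk2: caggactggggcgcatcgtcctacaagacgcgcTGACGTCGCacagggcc
The window of *Atg2a*, the member with the largest ratio, does not hold these letters, and a match here is a description of letters and not of binding.

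The genes that act before and after these steps were taken from 7 lists written by symbol, with 82 of 88 genes in the tables. In Nrf1 samples 15 of the 82 (18.3%) were above the fold limit, against 15.0% of all genes and 11.6% of well counted genes, and 2 (2.44%) were under it, against 24.3% and 11.9%. In Nrf2 samples 10 (12.2%) were above, against 15.6% and 7.67%, and 2 (2.44%) under, against 15.5% and 6.65%. The shares above the limit were thus near those of all genes in both and higher than those of well counted genes. The shares under it were lower than those of either background. The median log2 ratios of the 82 genes were 0.17 and 0.07. In Nrf2 over Nrf1 samples 1 (1.22%) was above, against 20.1% and 7.50%, and 6 (7.32%) were under the limit, against 8.72% and 4.24%, with a median of -0.07. Upstream, the list of mTORC1, AMPK and their regulators had 3 of 22 genes (13.6%) above and 2 (9.09%) under the limit with Nrf1, shares near or below those of all genes (15.0% and 24.3%), and a median of 0.18. *Tbc1d7*, a subunit of the TSC complex that restrains mTORC1, had means of 75.3 in LacZ and 151 in Nrf1 samples, *Rptor*, the scaffold of mTORC1 that delivers its substrates, had 717 and 1175, and *Prkaa2*, a catalytic subunit of AMPK, had 1147 and 1833. *Ddit4*, a stress-induced inhibitor of mTORC1, had means of 704 in LacZ and 390 in Nrf1 samples, and *Sesn2*, a leucine sensor that restrains mTORC1 as well, had a log2 ratio of -0.67. With Nrf2, 2 of the 22 (9.09%) were above and 1 (4.55%) under the limit, against 15.6% and 15.5% of all genes, with *Tsc2* at a log2 ratio of 0.76, *Prkab2* at 0.60 and *Rragc* at -0.62. Above the limit with Nrf1 were thus both the mTORC1 scaffold gene *Rptor* and *Tbc1d7*, which restrains mTORC1, while *Ddit4* and *Sesn2*, under it, both restrain mTORC1. Above it with Nrf2 were *Tsc2*, of the TSC complex, and the AMPK subunit gene *Prkab2*.

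The genes of the PI3-kinase complex, which makes the PI3P that WIPI proteins bind, had medians of -0.03 for 7 genes with Nrf1 and -0.11 with Nrf2. None of the 7 was past the limit against LacZ. Of all genes, 15.0% lay above and 24.3% under the limit with Nrf1, and 15.6% and 15.5% with Nrf2. Other genes of the phagophore membrane had the highest median of the 7 lists with Nrf1, 0.36 over 9 genes. Above the limit were 3 of the 9 (33.3%), against 15.0% of all genes. Of these, *Vmp1* and *Tmem41b*, scramblases of the endoplasmic reticulum, had log2 ratios of 0.94 (means 1641 and 3144) and 0.92 (means 708 and 1336), and *Wdr45*, the WIPI family gene whose product binds ATG2, had 0.90 (means 325 and 606). With Nrf2, *Vmp1* was at 0.66 (means 1753 and 2765) and the other 8 genes were inside the limit, so that 11.1% were above it, against 15.6% of all genes. Of the WIPI family, *Wdr45* and *Wipi2* were thus higher and *Wipi1* lower in Nrf1 samples. *Wdr45b*, also of this family, had means of 468 in LacZ and 541 in Nrf1 samples, a log2 ratio of 0.21 inside the limit.

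Downstream, 3 of 15 genes of Atg8 and Atg12 conjugation (20.0%, against 15.0% of all genes) were above the limit with Nrf1, *Gabarapl1*, *Atg4d* and *Gabarapl2*, at log2 ratios of 1.07, 0.92 and 0.85. With Nrf2, *Gabarapl1* and *Gabarapl2* were above it at 0.99 and 0.75 (13.3%, against 15.6% of all genes) and *Atg16l2* was under it at -0.83 (6.67%, against 15.5%). Of 11 cargo receptor genes, 4 (36.4%, against 15.0% of all genes) were above the limit with Nrf1, among them *Bnip3*, a mitophagy receptor, at 1.04, *Sqstm1*, which encodes the ubiquitin receptor p62, at 0.99, and *Ccpg1*, a receptor for the endoplasmic reticulum, at 0.60. The other is *Calcoco1*, named after its values were seen, with means of only 3.73 and 8.80. With Nrf2, 5 of 11 (45.5%, against 15.6%) were above it, with *Sqstm1* at 1.26, *Bnip3* at 1.00, *Fundc1* at 0.68 and *Tax1bp1* at 0.64, while *Calcoco1* had means of 3.98 and 6.29. Of 12 genes of autophagosome fusion with lysosomes, *Plekhm1* and *Vamp8* were above the limit with Nrf1, at 0.72 and 0.60. This makes 16.7%, near the 15.0% of all genes. None of the 12 was under it with Nrf1, against 24.3% of all genes. With Nrf2 none was past it, where 15.6% of all genes were above and 15.5% under. The 6 transcription factors of autophagy genes, which include *Tfeb* and *Foxo3*, had medians of -0.21 with Nrf1 and -0.15 with Nrf2. No gene of this list was past the limit, against the same shares of all genes, 15.0% and 15.6% above and 24.3% and 15.5% under.

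**Figure D3:**
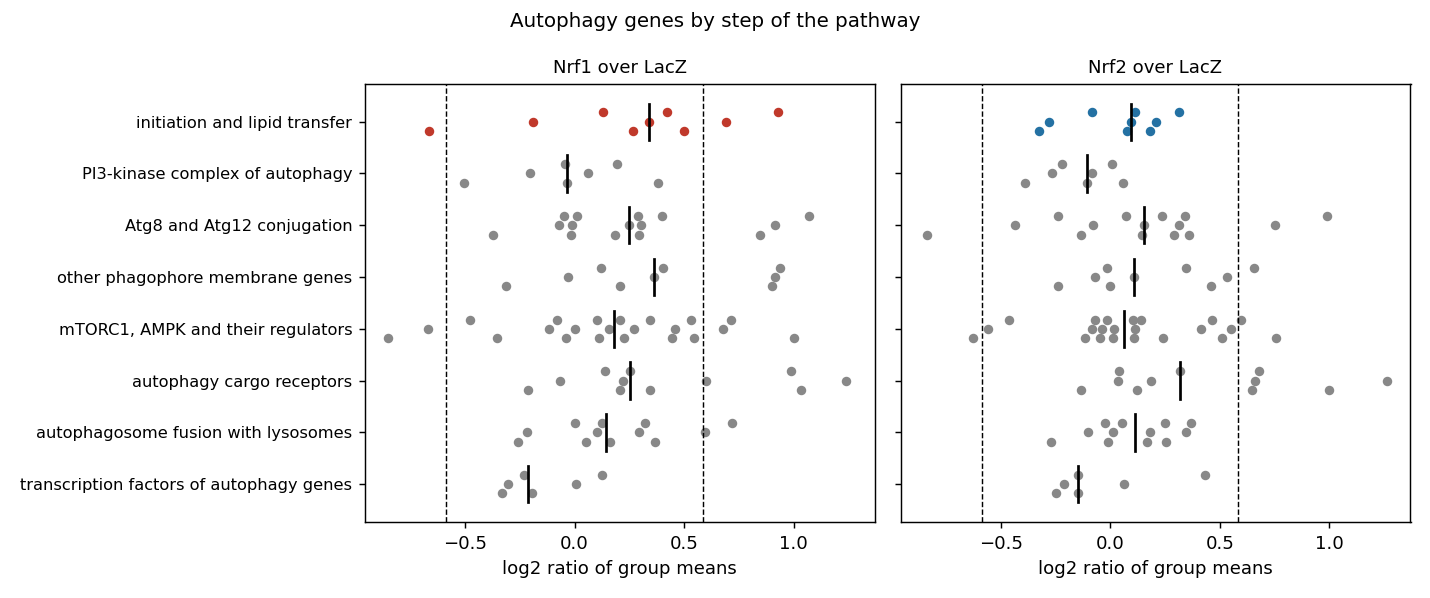
Log2 ratio of group means for single genes (points) of each step of autophagy, for Nrf1 over LacZ (left) and Nrf2 over LacZ (right), with the 9 members in colour, the genes of the 7 other lists in grey, black bars for the median of a list and dashed lines at a ratio of 1.5 in either direction. The members have a median of 0.34 on the left and 0.09 on the right, and their points on the right all lie between the dashed lines; re-centring on the cardiomyocyte markers moves all points on the left up by 0.28.

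The pattern of the members over the 3 groups was compared with that of the 82 list genes by the distance in the plane of the log2 ratios over LacZ. *Atg2a*, the highest member with Nrf1, was nearest to *Atg4d* (distance 0.13) and *Tmem41b* (distance 0.17), and *Wipi1*, the lowest, to *Uvrag* (distance 0.17) and *Sesn2* (distance 0.23). *Atg4d* had log2 ratios of 0.92 with Nrf1 and 0.31 with Nrf2, and *Uvrag* had -0.50 and -0.39. The likeness rests on 3 group means only, and the study had already named *Atg2a* and *Atg4d* together as higher with Nrf1 in these libraries.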

How the data were processed

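Stranded mRNA libraries of NRVMs, 9 in all and 3 for each virus, were sequenced from a single end. Per the methods of the study and the submitters' processing notes, reads were checked with FastQC 0.11.4, aligned to the rat genome Rnor_6.0 with HISAT2 2.0.4, freed of duplicates with SAMtools 0.1.18 and counted with featureCounts 1.6.0, and edgeR 3.20.5 served for the comparisons. Removing duplicates of single-end reads can lower the counts of abundant genes, and the strand setting of the counting is not given in the sources used here, so reads of overlapping antisense genes cannot be told apart. The deposited signal is the group mean of counts divided by size factors, set by the authors within each of the 3 tables. The tables also hold the authors' fold changes, p-values and adjusted p-values, which were not used, and 0 columns of single samples.

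Ratios of group means and their log2 were computed with Python 3.11.15, numpy 2.4.6, pandas 2.3.3 and SciPy 1.17.1, with a fold limit of 1.5, no pseudocount and no filter. Reads behind a mean were taken from the steps of the means under 2 (tolerance 5e-06), and the exact binomial (Clopper-Pearson) interval at 95% was turned into a ratio. For the gap between the log2 ratios of a pair of genes, the 95% interval was a normal approximation from the reads behind their means. The steps gave relative depths of the deepest over the shallowest library of a group between 1.18 and 1.21. The calculation was tested on simulated data. Of the 14819 rows for Nrf1 and LacZ, 4 share a symbol with another and were matched to no list. Named genes were the members, up to 4 genes per other list and table with LacZ that were past the limit with a mean of at least 10, *Nfe2l1*, *Nfe2l2* and the nearest genes of the outermost members. The members and lists were chosen with earlier results of these data known. Alternatives were limits of 1.25 and 2, 3 scalings, adding 1 to each mean, the well counted genes alone, and the ratio of Nrf2 to Nrf1 by way of LacZ.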

Additional observations from a re-analysis of the deposited data

How the results depend on the processing

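With a fold limit of 2, 0 members were past it for Nrf1 over LacZ and 0 for Nrf2 over Nrf1, where 9.09% and 3.60% of well counted genes were; with the smaller limit that was tried there were 6, 1 and 5 members past it for Nrf1 over LacZ, Nrf2 over LacZ and Nrf2 over Nrf1 (66.7%, 11.1% and 55.6% of the members), against 47.3%, 34.3% and 32.9% of well counted genes. Re-centred on the cardiomyocyte markers, 5 members were past the limit of 1.5 for Nrf1 over LacZ and 6 for Nrf2 over Nrf1. These make 55.6% and 66.7%, against 33.8% and 41.9% of well counted genes and 44.6% and 48.6% of all genes. The medians became 0.62 and -0.69. This follows from the marker medians of -0.28 and 0.47, which are subtracted from every gene. That scaling turned the sign of 2 of 27 member ratios, *Ulk2* for Nrf1 over LacZ (0.09) and *Wipi1* for Nrf2 over Nrf1 (-0.14). Re-centring on the median gene, scaling by column sums and adding 1 to each mean changed no sign and left the members past the limit as they were. These settings moved each median by less than the mean reach of a single member's counting interval to either side. Scaling by column sums still brought the median for Nrf2 over LacZ from 0.09 to 0.02. The median for Nrf2 over Nrf1 was -0.22 both directly and by way of LacZ. No paired analysis was possible because the tables hold group means, and for the same reason no replicate could be left out and the spread between libraries was not measured. Depth limited the sign of *Ulk1* for Nrf2 over LacZ, and of *Ulk2* and *Atg9a* for Nrf2 over Nrf1, whose counting intervals held 0 as deposited. Scaled by column sums, the interval of *Atg9a* for Nrf1 over LacZ held 0 too.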

Other observations

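For scale, the 31 subunit genes of the 26S proteasome were all above a ratio of 1.5 in Nrf1 samples compared to LacZ samples, as were 15.0% of all genes and 11.6% of well counted genes. The median log2 ratio of the subunits was 1.12. In Nrf2 samples 7 of them (22.6%) were above it, against 15.6% of all genes and 7.67% of well counted genes, with a subunit median of 0.40. In Nrf2 over Nrf1 samples 23 of the 31 (74.2%) were under the inverse of that ratio, against 8.72% of all genes and 4.24% of well counted genes, with a median of -0.77. *Atg2a* thus had a log2 ratio of 0.93 where the median of these subunits was 1.12, and -0.76 in Nrf2 over Nrf1 samples where their median was -0.77. For Nrf2 over LacZ it had 0.18 where their median was 0.40. *Atg13* stood at 0.69 for Nrf1 over LacZ, -0.39 for Nrf2 over Nrf1 and 0.31 for Nrf2 over LacZ.

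Of 10 endothelial markers, 7 were under the inverse of 1.5 in Nrf1 compared to LacZ samples, against 24.3% of all genes. In Nrf2 compared to LacZ samples 6 were under it, against 15.5% of all genes. *Egfl7* was above 1.5 in Nrf2 samples (log2 ratio 0.81), as were 15.6% of all genes. The summed means of the 10 markers were 2140 in LacZ and 1426 in Nrf1 samples. The 12 leukocyte markers summed to 1943 in LacZ and 968 in Nrf1 samples, and to 2076 in LacZ and 1047 in Nrf2 samples. Markers of smooth muscle and pericytes did not move one way, with 2 of 7 (28.6%) above and 3 (42.9%) under the limit in Nrf1 samples, against 15.0% and 24.3% of all genes. Fibroblast markers in the table of Nrf2 and LacZ summed to 132017 in LacZ and 74464 in Nrf2 samples. None of the markers of these lists was listed at 0 in any group.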
